A study of Mus musculus with 3 samples.

Results

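The genes described here encode mainly the cytoplasmic initiation and elongation factors of protein synthesis, with some enzymes, inhibitors and related proteins that share their symbols. They were read in RNA bound to endothelial ribosomes of the mouse heart. Members were the protein-coding genes whose symbol starts with Eif or Eef, without the eIF2 alpha kinases and without the X-linked and Y-linked genes of the eIF2 gamma subunit. By this rule 63 of the 17583 genes listed were members, and the rule uses no measured value. All 3 libraries came from EC-RiboTag mice (Cdh5-CreERT2;Rpl22tm1.1Psam), in which an inducible Cre driven by the endothelial Cdh5 promoter switches the ribosomal protein RPL22 to a hemagglutinin-tagged form, and tagged ribosomes were pulled down from heart homogenate. The labels place the hearts at day 7 after coronary ligation. The study abbreviates the remote zone of infarcted hearts as RZ and, for a PCR experiment, isolated EC-RiboTag RNA from that zone at day 7. The labels do not say whether the letters Rz in the library titles mean the same, and the study's description of its RiboTag sequencing names neither a zone nor an infarction. The study used adult mice of both sexes on a C57BL/6 background, and the labels give neither age nor sex for these 3. Neither input material nor a comparison group was analysed here, so every value is a level within the immunoprecipitate and not an enrichment. The labels call the 3 libraries biological replicates, and they are numbered here as mouse 1, 2 and 3.

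Translation of most mRNAs starts at the cap. The cap-binding protein eIF4E, the scaffold eIF4G and the helicase eIF4A form eIF4F, which loads the mRNA onto a small ribosomal subunit that carries eIF1, eIF1A, eIF3, eIF5 and the eIF2 complex with the initiator tRNA. After the start codon is found, eIF5B joins the large subunit, and eIF2 is recharged by its exchange factor eIF2B. In elongation eEF1A brings aminoacyl-tRNAs, eEF1B recharges eEF1A, eEF2 moves the ribosome along, and eIF5A eases slow peptide bonds. Eef1a1 is expressed in nearly every tissue, whereas Eef1a2 is known as the form of heart muscle, skeletal muscle and neurons.

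The isoform pairs are similar enough that their sequences bear on how reads can be told apart. The stretches below are the earliest 72 coding bases, the length of a read, that lie within a single exon in both genes of a pair. They were read from GRCm39 and are written 5′ to 3′ on the coding strand, with the bases that differ between the members of a pair in capitals. Eef1a1 is shown from chr9:78387865-78387936 (minus strand) and Eef1a2 from chr2:180797128-180797199 (minus strand), both coding bases 1 to 72. Eif4a1 is shown from chr11:69561502-69561573 (minus strand, coding bases 73 to 144) and Eif4a2 from chr16:22927469-22927540 (plus strand, coding bases 76 to 147).
Eef1a1: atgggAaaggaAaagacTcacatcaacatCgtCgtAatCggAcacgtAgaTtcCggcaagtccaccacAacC
Eef1a2: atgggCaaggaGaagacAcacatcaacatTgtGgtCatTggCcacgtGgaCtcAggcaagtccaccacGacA
Eif4a1: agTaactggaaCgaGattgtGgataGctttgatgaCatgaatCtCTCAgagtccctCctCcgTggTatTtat
Eif4a2: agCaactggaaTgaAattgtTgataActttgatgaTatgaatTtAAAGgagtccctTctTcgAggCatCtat
The Eef1a pair differed at 13 of these bases and the Eif4a pair at 16. Over the whole coding sequence Eef1a1 and Eef1a2 were 80.1% identical, with no identical run above 23 bases. Eif4a1 and Eif4a2 were 77.8% identical with a longest run of 20 bases, and Eif5a and Eif5a2 were 72.8% identical with a longest run of 14. Eif1 and Eif1b shared 81.1% of bases and a longest run of 25, and Eif1a and Eif1ax 85.6% and 28. No coding read of 72 bases therefore matches both genes exactly in these 5 pairs. Eif3j1 and Eif3j2 were 100% identical over 783 aligned coding bases.

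The deposited normalized counts summed to between 7149102 and 7268785 per library, and 1 read was worth an estimated 0.977, 1.06 and 0.961 normalized counts, or about 7320000, 6754000 and 7566000 reads. Markers of endothelial cells, 12 of 12 listed, had a median of 690.1 ± 13.4 per kb (SD, n = 3 mice), and their summed normalized counts were 28759, 27701 and 27593 in mouse 1, 2 and 3. Cardiomyocyte markers were not low, with a median of 565 ± 18.9 per kb over 10 of 10 genes. Fibroblast markers had a median of 97.4 ± 11.9 per kb, mural markers 45.6 ± 6.29 and leukocyte markers 25.4 ± 6.61, and no gene of these lists was at 0 in all mice.

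Most members were well detected. A mean normalized count of at least 200 was reached by 56 of 63 members, against 53.2% of all genes listed and 64.8% of the protein-coding ones. At least 500 was reached by 45 members, against 31.4% and 38.6%, and at least 1000 by 12, against 11.5% and 14.2%. Together they took 0.701%, 0.697% and 0.664% of the normalized counts of mouse 1, 2 and 3. In bulk RNA of this kind, fewer cells of a type and less RNA per cell cannot be told apart. The 5 members with the most counts, undivided by length, were Eif4g2, Eef2, Eif4ebp2, Eif4b and Eif4g1, with means between 2180.3 and 3398. The 7 members below 200 were Eif3j1, Eef1akmt1, Eif2b3, Eef1akmt4, Eif3j2, Eef1akmt3 and Eif4ebp3, of which the last 3 had means of 4.67, 4.00 and 2.00.

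Counts rise with transcript length, so levels of different genes are compared per length, and an order by count is named as such. The level per kb is the normalized count divided by the kilobases of the Ensembl canonical transcript. That transcript comes from a newer annotation than the one the counts were made with, so a second value, the level per counted kb, divides by the canonical bases that lie between the start and the end the deposited table gives for the gene. At least 99% of the canonical transcript lay inside that interval for 37 of 63 members, against 56.4% of all genes with a length. Less than 90% did for 10 of the 56 members with a mean of at least 200, against 20.2% of all genes at that mean. Eef1a2 was the extreme among the members: of its 13742 canonical bases, 2084 (15.2%) lay inside the interval. The others below 50% were Eef1akmt2 with 26.7%, Eef2kmt with 30.6%, Eef1akmt1 with 37.4% and Eif3h with 42.9%. The median level of the 56 members was 293 per kb, against 176 for all 9356 genes at that mean with a length, and per counted kb these medians were 328 and 198. Their median canonical transcript was also shorter, 2560.5 bases against 3661.5, while the median counts were 682 and 587.

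**Figure D1:**
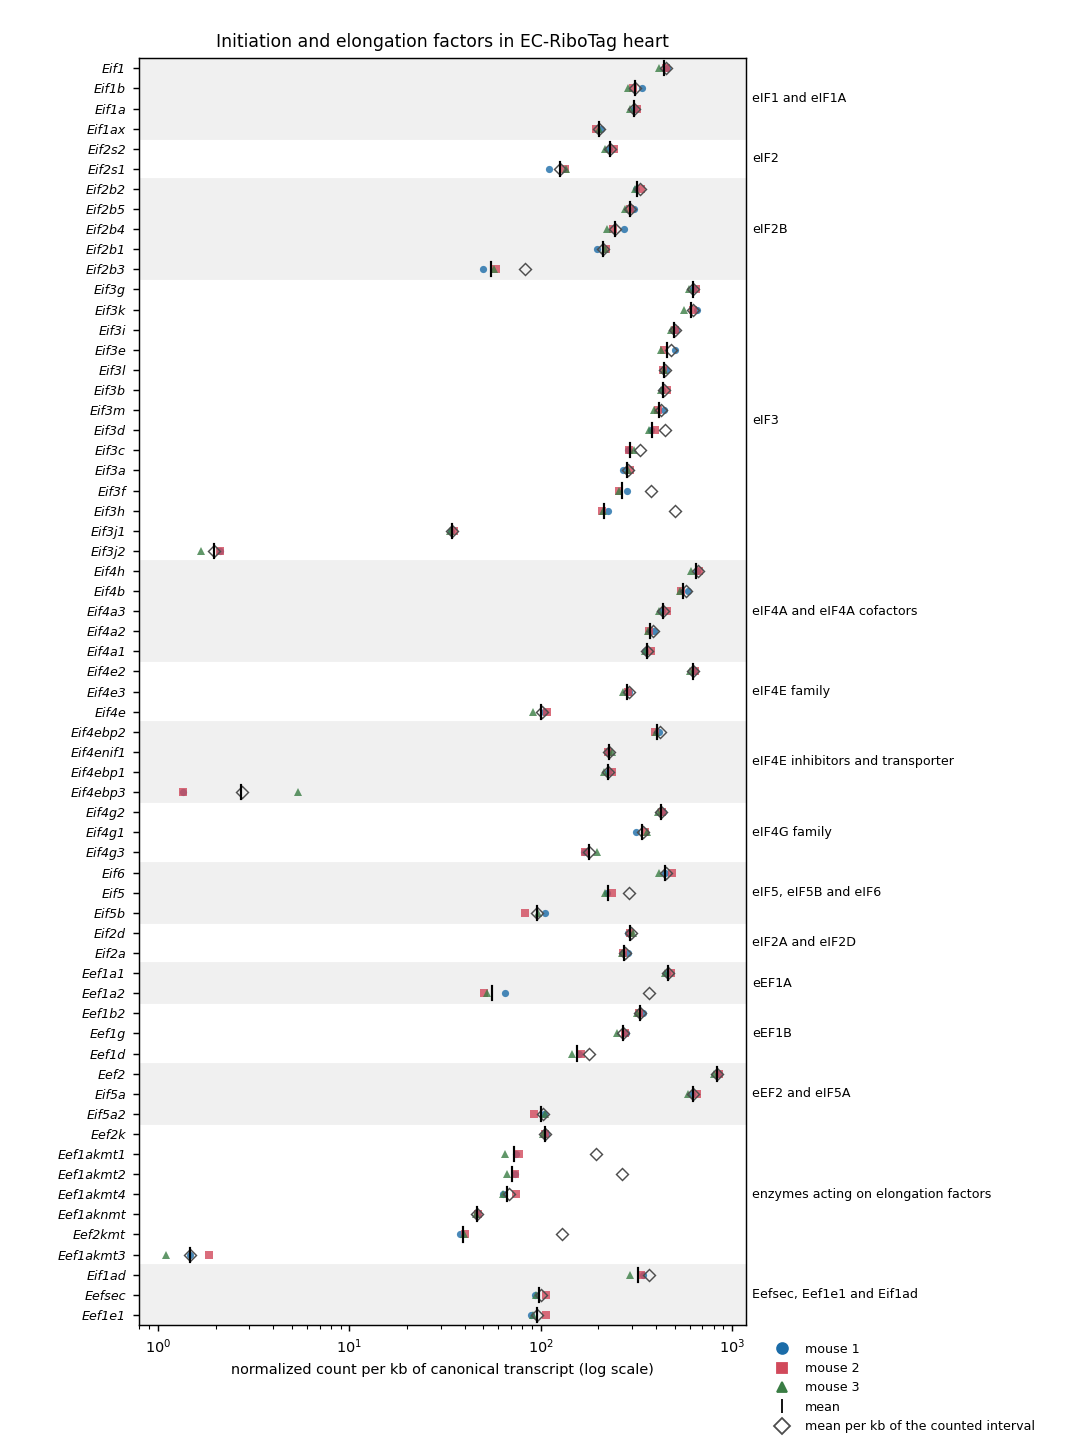
Normalized count per kb of canonical transcript (log axis) of the 63 members in each of 3 EC-RiboTag mice, grouped by role. Coloured points are mice, black ticks are means, and open diamonds are means per kb of the canonical bases inside the deposited gene interval; Eef2 is highest at 832, and the diamond of Eef1a2 sits at 368, far to the right of its tick at 55.8.

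Among scanning factors, which hold the ribosome in a form that searches for the start codon, Eif1 was the highest at 440.2 ± 23.3 per kb (SD, n = 3). In mouse 1, 2 and 3 it had normalized counts of 624, 612 and 564. Eif1b, its close relative, had 356, 318 and 301, or 309 ± 26.8 per kb. The log2 ratio of Eif1 to Eif1b was 0.51 ± 0.07, positive in each mouse (exact sign-flip permutation test, two-sided p = 0.25, adjusted p = 0.273 over 12 gene pairs). With 3 mice 0.25 is the smallest p this test can give, so no ratio in this report can pass 0.05. Eif1a had 663, 692 and 634 counts and Eif1ax, on the X chromosome, 1067, 1007 and 1044. Eif1ax was thus higher by count and Eif1a by level per kb, with a log2 ratio of Eif1a to Eif1ax of 0.61 ± 0.09 per kb and -0.65 without division by length. Which of Eif1a and Eif1ax is the higher depends on the length used.

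The eIF2 complex delivers the initiator tRNA, and 2 of its genes were members. Its alpha subunit Eif2s1, the target of the stress kinases, had 378, 456 and 460 normalized counts, lowest in mouse 1, or 127 ± 13.6 per kb. The beta subunit Eif2s2 had 579, 614 and 553, or 229 ± 12.0 per kb. Of the 5 subunits of eIF2B, Eif2b2 was highest at 319 ± 11.9 per kb and Eif2b5, which carries the catalytic exchange activity, followed with 293 ± 15.9. Eif2b4 stood at 245 ± 25.5 and Eif2b1 at 211 ± 13.1 per kb. Eif2b3 was the lowest of eIF2B, with counts of 150, 176 and 171 and a level of 55.2 ± 4.60 per kb, or 82.5 ± 6.87 per counted kb. Highest over lowest, the eIF2B subunits spanned 3.98-fold per counted kb although they assemble into a single complex. Eif2b4 was highest in mouse 1 with 552 counts, against 483 and 451 in mice 2 and 3.

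The 14 eIF3 genes, whose complex is the scaffold on the small subunit, had a median of 396 ± 13.1 per kb and 442 ± 10.7 per counted kb. By count the largest subunits led, Eif3a with 1400, 1520 and 1480, Eif3b with 1282, 1359 and 1262, and Eif3c with 1089, 1108 and 1168. Per kb the order was different. Eif3g, an RNA-binding subunit, was highest at 623 ± 28.1 and Eif3k followed at 613 ± 48.0, a gap within their spread. Eif3i stood at 496 ± 16.3, Eif3e at 455 ± 40.0, Eif3l at 442 ± 6.12, Eif3b at 438 ± 17.2, Eif3m at 413 ± 24 and Eif3d at 381 ± 15.2, and the neighbours Eif3e, Eif3l and Eif3b did not differ beyond their spread. Eif3c had 293 ± 10.8 and Eif3a 283 ± 11.8 per kb. Eif3f and Eif3h changed most with the length, from 264 to 379 and from 214 to 500 per counted kb.

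Leaving out Eif3j1 and Eif3j2, the other 12 subunits lay within 2.91-fold of each other per kb and within 2.20-fold per counted kb. The 8 subunits of the octamer (a, c, e, f, h, k, l and m) had a median of 435 ± 15 per counted kb and the 4 others (b, d, g and i) one of 473 ± 15.1. Eif3j, a loosely bound subunit, is encoded by 2 nearly identical genes in the mouse. Eif3j1 had 185, 192 and 183 normalized counts and Eif3j2 had 5, 5 and 4. Of the 72-base windows of their canonical transcripts, 78.5% in Eif3j1 and 68.3% in Eif3j2 recur identically at another genomic place, and reads that map to several places had been removed. Per kb the log2 ratio of Eif3j1 to Eif3j2 was 4.00 ± 0.15 (p = 0.25, exact sign-flip permutation test), and how reads of the shared part would divide is not known from the table.

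**Figure D2:**
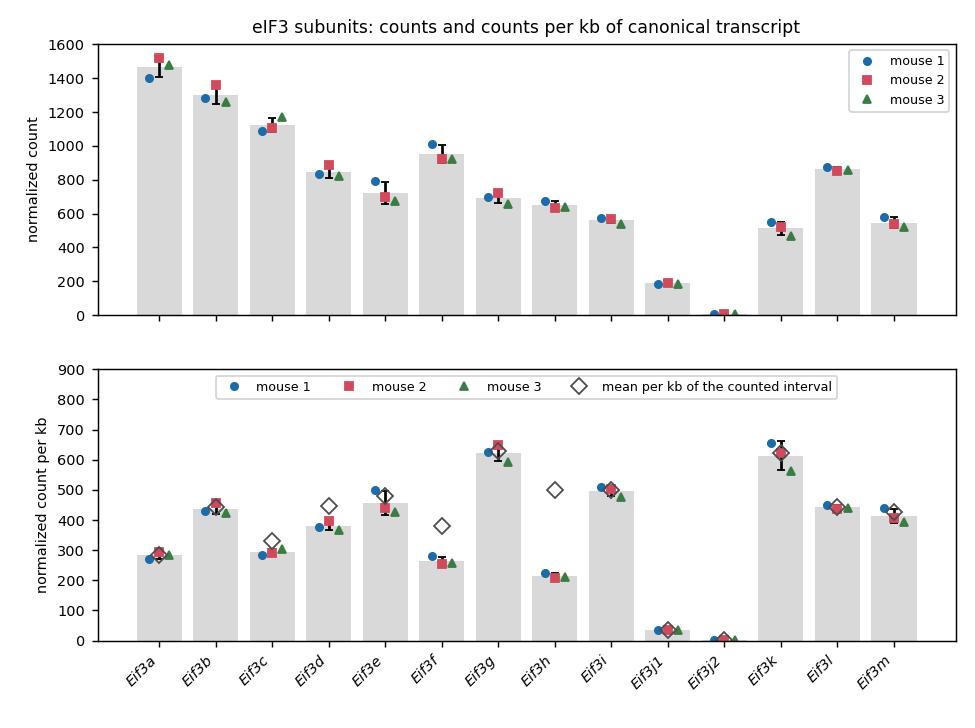
Normalized counts (top) and normalized counts per kb of canonical transcript (bottom) of the 14 eIF3 genes. Bars are means with SD over 3 mice, coloured points are mice and open diamonds are means per kb of the canonical bases inside the deposited gene interval. Eif3a leads by count at 1467 and Eif3g per kb at 623, and Eif3j1 and Eif3j2 are lowest in both.

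Medians of the complexes were compared within each mouse. Per kb eIF3 exceeded eIF2B by a log2 ratio of 0.70 ± 0.12 and eIF2 by 1.22 ± 0.11 (SD, n = 3), with the same sign in 3 of 3 mice and p = 0.25 (exact sign-flip permutation test, 0.25 after adjustment over 5 pairs of groups). Per counted kb these ratios were 0.86 and 1.38, and with log2 levels averaged over subunits in place of medians they were 0.23 and 0.41. The ratio of eIF3 to eIF2 was 0.01 per coding kb. Between eIF2 and eIF2B the log2 ratio was -0.52 ± 0.22 per kb but 0.05 without division by length, 0.57 per coding kb and -0.18 with log2 levels averaged, so their order was not settled. eEF1B and eIF2B differed by 0.13 ± 0.09, with values of 0.03, 0.21 and 0.16 in the 3 mice. The ratio of eIF3 to eEF1B was 0.56 ± 0.04 per kb. It turned to -0.21 per kb of all exons joined and to -0.08 when log2 levels were averaged over subunits. The averages for eIF3 include Eif3j1 and Eif3j2, at 34.4 and 1.96 per kb, while the other 12 subunits lay between 214 and 623. Averages without these 2 genes were not computed.

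The 3 eIF4G scaffolds had a median normalized count of 2180.3 ± 147.1 and a median of 340.2 ± 22.9 per kb. Eif4g2 encodes a scaffold that lacks the eIF4E-binding part and supports cap-independent initiation. It had normalized counts of 3487, 3444 and 3264, or 425 ± 14.8 per kb, and ranked 27 among all genes by count and 961 per kb. Eif4g1, the main scaffold of eIF4F, had 2013, 2239 and 2289, or 340.2 ± 22.9 per kb, and Eif4g3 had 1038, 1040 and 1209, or 179 ± 16 per kb. Eif4g1 and Eif4g3 were both lowest in mouse 1. Eif4g1 exceeded Eif4g3 by a log2 ratio of 0.93 ± 0.10 and was below Eif4g2 by -0.32 ± 0.14 (both p = 0.25, exact sign-flip permutation test, adjusted p = 0.273). Eif4g1 stayed above Eif4g3 and below Eif4g2 under every length used, but its distance from Eif4g2 grew to -1.46 per coding kb.

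Of the cap-binding proteins, the canonical factor Eif4e was the lowest. Eif4e had normalized counts of 520, 539 and 453, or 101 ± 9.04 per kb. Eif4e2, encoding 4EHP, a cap-binding protein known for repressing translation, had 986, 1005 and 942, or 623 ± 20.6 per kb. Eif4e3 had 748, 737 and 697, or 282 ± 10.4 per kb. The ranges of the 3 genes did not overlap. Per kb the log2 ratio of Eif4e to Eif4e2 was -2.63 ± 0.08 and that to Eif4e3 -1.48 ± 0.09 (both p = 0.25, exact sign-flip permutation test, adjusted p = 0.273). The first of these depended strongly on length, since it was -0.96 without any division and -0.08 per kb of all exons joined, where Eif4e2 is assigned 11189 bases. Eif4e1b was not among the genes listed.

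Binding of eIF4E to eIF4G is blocked by the 4E-BPs, which mTORC1 inactivates by phosphorylation. Eif4ebp2 was the highest 4E-BP per kb in these hearts, at 403 ± 10.4 against 225 ± 11 for Eif4ebp1. Eif4ebp2 had normalized counts of 2497, 2374 and 2413, and Eif4ebp1 had 449, 473 and 429. Eif4ebp3 had 1, 1 and 4 counts. Of its canonical bases, 66.1% also belong to another gene on the strand in the newer annotation, where reads may not have been counted. The log2 ratio of Eif4ebp1 to Eif4ebp2 was -0.84 ± 0.09 per kb and -2.43 without division by length, because the Eif4ebp2 transcript spans 6022 bases with 360 coding. Eif4enif1, which carries eIF4E into the nucleus and to processing bodies, had 818, 819 and 859.

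Helicase genes and their cofactors lay between 359 and 645 per kb. Eif4h, which stimulates eIF4A, reached 645 ± 28.9 per kb, and Eif4b, another stimulator and a substrate of S6 kinase, had counts of 2340, 2151 and 2121, or 553 ± 29.8 per kb. Eif4a3, the helicase of the exon junction complex, stood at 436 ± 21.6 per kb. Eif4a1 had 620, 672 and 622 counts and Eif4a2 had 961, 898 and 893. The count of Eif4a2 was higher in every mouse, but per kb the log2 ratio of Eif4a1 to Eif4a2 was -0.06 ± 0.11, with signs that differed between mice (p = 0.5, exact sign-flip permutation test, adjusted p = 0.5). Of the 72-base windows of Eif4a1, 79.4% recur identically elsewhere, against 21.4% in Eif4a2. Divided by the windows that are unique, the ratio turned to 1.89, or 3.71-fold in favour of Eif4a1. With duplicates removed, Eif4a1 still had a mean of 638 counts on 351 unique windows. Counted reads therefore also began elsewhere, and this length is too short for Eif4a1.

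Late initiation factors spread widely. Eif6, which keeps the large subunit from joining too early, had 448 ± 33.4 per kb. Eif5, the activator of the eIF2 GTPase, had 224 ± 9.03 per kb and 289 per counted kb, and Eif5b 95.1 ± 11.4 per kb. Eif5b had counts of 829, 652 and 766, lowest in mouse 2, with a CV of 12.0%. Eif2a and Eif2d, which can place the initiator tRNA without eIF2, were alike at 274 ± 11.5 and 293 ± 8.48 per kb.

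Elongation was led by Eef2, the translocase. Its normalized counts were 2612, 2625 and 2471, and at 832 ± 27.6 per kb it was the highest member per length and ranked 43 among all genes with a length. Eef2 (ENSMUSG00000034994) lies on chromosome 10. Eif5a, whose protein is activated by hypusine, had 849, 899 and 804, or 622 ± 34.7 per kb. Its relative Eif5a2 had 530, 472 and 539, or 101 ± 7.14 per kb. The log2 ratio of Eif5a to Eif5a2 was 2.62 ± 0.18 per kb and 0.73 without division by length, since Eif5a2 spans 5091 bases against 1368. The sign was the same under every length used.

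In GRCm39, Eef1a1 (ENSMUSG00000037742) occupies chromosome 9 between 78385731 and 78396433, and Eef1a2 (ENSMUSG00000016349) chromosome 2 between 180789446 and 180798807, both on the minus strand. Eef1a1 had normalized counts of 824, 861 and 804, and Eef1a2 had 893, 693 and 716. The ranges overlapped: Eef1a2 was above Eef1a1 in mouse 1 and below it in mice 2 and 3. Per kb of canonical transcript Eef1a1 had 462 ± 16.1 and Eef1a2 55.8 ± 7.96, a log2 ratio of 3.06 ± 0.22 or 8.33-fold (p = 0.25, exact sign-flip permutation test, adjusted p = 0.273). This fold rested on the 13742 bases given to Eef1a2. Per counted kb Eef1a2 stood at 368 ± 52.5, and the log2 ratio was 0.34 ± 0.22, or 1.26-fold, with 0.10, 0.53 and 0.38 in the 3 mice. Per coding kb it was 0.12, a difference smaller than its SD of 0.22 over mice.

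A second property moved the same comparison the other way. Of the 72-base windows of Eef1a1, 55.5% recur identically elsewhere, whereas no window of Eef1a2 inside the counted interval has any. Divided by the unique windows inside that interval, the log2 ratio of Eef1a1 to Eef1a2 was 1.51, or 2.85-fold. With duplicates removed, Eef1a1 still had a mean of 830 counts on 767 unique windows. Counted reads therefore also began elsewhere, and this length is too short for Eef1a1. Every length used put Eef1a1 above Eef1a2 on average, by between 1.09-fold and 19.3-fold. The size of the difference between Eef1a1 and Eef1a2 could therefore not be fixed from this table. Eef1a2 also had the highest CV of the 56 members, 14.3%. The 10 cardiomyocyte markers, of the cells in which Eef1a2 is known, summed to 20679, 21339 and 24237 in mouse 1, 2 and 3. The sum was lowest where Eef1a2 was highest, while the median count was highest in mouse 1, with 1177.5 against 1114 and 1078. By gene, Ttn (7379, 7743 and 10190), Ryr2 (3280, 3667 and 4486), Myh6 and Tnnt2 were lowest in mouse 1. Actc1, Mb, Myl2, Myl3, Pln and Tnni3 were highest there. What part of Eef1a2 came from cardiomyocyte RNA was not tested.

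**Figure D3:**
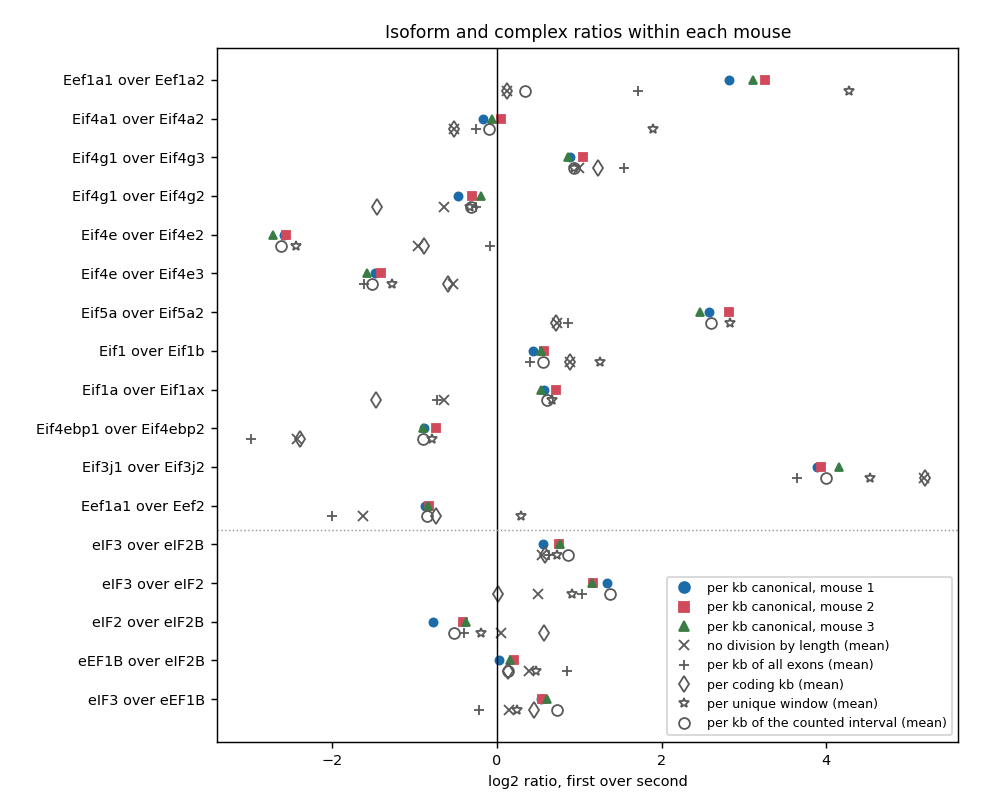
Log2 ratios of isoform pairs and of complex medians. Coloured points are the 3 mice per kb of canonical transcript; grey symbols below them are means under the other lengths. Eef1a1 over Eef1a2 runs from 0.12 to 4.27, Eif4a1 over Eif4a2 changes sign to 1.89 per unique window, and Eif4g1 over Eif4g3 hardly moves.

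Between the elongation factors themselves, Eef1a1 was below Eef2 by a log2 ratio of -0.85 ± 0.03 per kb (p = 0.25, exact sign-flip permutation test) and above it by 0.29 per unique window. eEF1B consists of the catalytic subunits Eef1b2 and Eef1d and the structural subunit Eef1g. Eef1b2 had 661, 634 and 616 counts, or 329 ± 11.7 per kb. Eef1d had 670, 684 and 619, or 155 ± 8.08 per kb. Eef1g had 518, 513 and 465, or 268 ± 15.7 per kb, and 61.1% of its windows have a copy elsewhere. Enzymes acting on elongation factors were lower per kb, at most 104.9, although Eef1akmt2 reached 266 per counted kb. Eef2k, the kinase that inactivates eEF2, had 702, 697 and 683, or 104.9 ± 1.49 per kb, with a CV of 1.42%. Eef2kmt, a lysine methyltransferase of eEF2, had 270, 286 and 283, or 39.4 ± 1.2 per kb and 129 per counted kb. The methyltransferases of eEF1A ranged from a mean of 4.00 for Eef1akmt3 to 294 for Eef1akmt2. Eefsec, which delivers selenocysteine, stood at 98.3 ± 7.20 per kb, Eef1e1 at 95.4 ± 9.35 and Eif1ad at 323 ± 25.9.

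The 3 mice were close to each other for these genes. Of the 56 members with a mean of at least 200, 0 had a CV between mice over 20%, against 8.00% of the 9358 genes at that mean. The median CV was 4.75% for the members and 7.37% for all, and 30 of 56 members were under 5%, against 27.2% of all. The median count was also higher for the members, 682 against 587, and CVs were not compared between genes of equal count. The 5 highest CVs belonged to Eef1a2 with 14.3%, Eif5b with 12.0%, Eif2s1 with 10.7%, Eif2b4 with 10.4% and Eef1e1 with 9.79%. A direction was shared by many members: 36 of 56 (64.3%) were lowest in mouse 3, against 39.0% of all genes at that mean. The median log2 deviation from the gene's own mean was -0.05 in mouse 3, 0.02 in mouse 1 and 0.03 in mouse 2. Fibroblast markers summed to 2659, 3172 and 3531 and mural markers to 1227, 1701 and 1878 in mouse 1, 2 and 3. The median count of the fibroblast markers was 378, 579 and 531, highest in mouse 2, and that of the mural markers 134, 206 and 240. Cardiomyocyte markers summed to 20679, 21339 and 24237, while their median count fell from 1177.5 to 1114 and 1078. Endothelial markers summed to 28759, 27701 and 27593. The part of these cell types in the lower values of mouse 3 was not tested. Scaling by trimmed means or to equal totals would multiply mouse 3 by 0.993 or 0.989 and so lower it further.

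Some factor genes have stretches that recur elsewhere in the genome, so that a read from them can match more than 1 place exactly. Whether every such read was dropped was not tested. What kind of sequence holds the copies was not tested. More than 10% of the 72-base windows had an exact copy elsewhere in the genome for 11 of 56 members, against 6.25% of all genes at that mean. Eif4a1 with 79.4%, Eef1g with 61.1% and Eef1a1 with 55.5% were above 50%, against 1.07% of all. Eif1 had 41.3%, Eif2s2 33%, Eif3m 25.2%, Eif4a2 21.4%, Eif4e 14.9%, Eif4a3 14.0%, Eif3e 12.3% and Eif5a 11.3%. No copied window was found in 25 of the 56, against 70.3% of all. In the coding part the share was 93.7% for Eif4a1, 89.9% for Eif1, 80.6% for Eef1g and 55.7% for Eef1a1, and a window of Eif1 occurred at up to 10 other places and of Eef1a1 at up to 8. For 8 of 63 members more than 2% of the canonical bases also belong to another gene on the same strand in the newer annotation, against 7.19% of all genes with a length. They are Eif4ebp3 with 66.1%, Eef1akmt4 with 43.1%, Eif4e3 with 15.5%, Eif1b with 14.6%, Eif5 with 13.6%, Eef1d with 8.50%, Eef1a1 with 6.02% and Eif3j2 with 3.11%. Reads that overlap several genes were not counted. Whether these overlaps are also in the annotation used for counting was not tested. The table also lists 4 processed pseudogenes of the families, at low levels. Eif4a-ps4 had 20, 22 and 22 counts, Eef2-ps2 22, 6 and 12, Eef1a1-ps1 10, 6 and 5 and Eif3s6-ps2 1, 2 and 7.

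**Figure D4:**
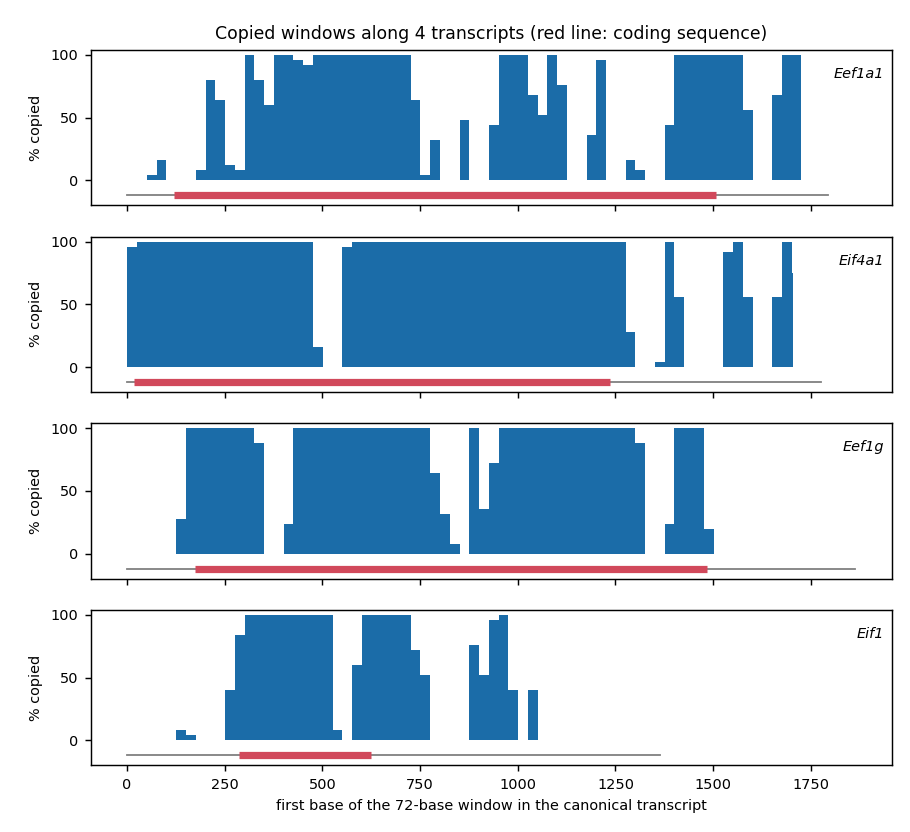
Share of 72-base windows with an exact copy elsewhere in the genome, in bins of 25 window starts along the canonical transcripts of Eef1a1, Eif4a1, Eef1g and Eif1; the red line marks the coding sequence. Copies cover 93.7% of coding windows in Eif4a1 and 55.7% in Eef1a1, and unique stretches remain between them.

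Duplicates had also been removed. Single-end reads that begin at the same position and strand then count once. Normalized counts per unique window are thus a rough measure of how many starts were filled. Over 0.5 normalized counts per unique window were found for 15 of 56 members, against 8.16% of all genes at that mean. With windows inside the counted interval only, 17 of 56 members passed, against 10.6%. Eif4a1 with 1.82 and Eef1a1 with 1.08 exceeded 1, as did 56 genes of 9356 in all, and Eef2 had 0.89. Values above 1 exceed a single read per unique start, so 1 was not a strict ceiling. Some counted reads of Eif4a1 and Eef1a1 therefore began outside these windows. Ratios per unique window that involve Eif4a1 or Eef1a1 divide by too few starts. Where those reads began was not tested, nor whether duplicate removal lowered the counts of Eef2, Eef1a1 and Eif4a1.

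**Figure D5:**
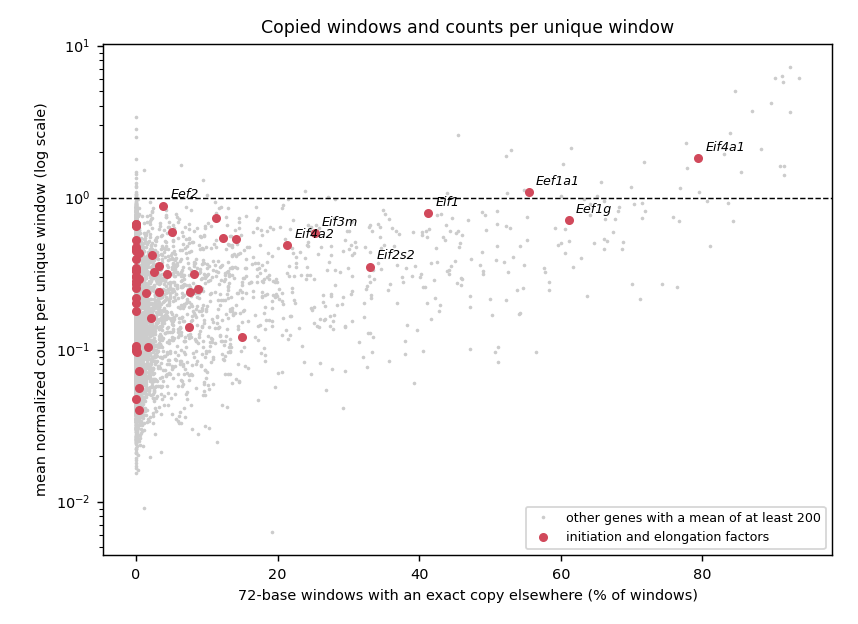
Mean normalized count per unique 72-base window (log axis) against the percentage of windows with an exact copy elsewhere, for genes with a mean of at least 200. Red points are the 56 members, grey points the other genes, and the dashed line is at 1. Eif4a1 at 1.82 and Eef1a1 at 1.08 lie above that line.

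Genes of related pathways were listed in full. Their group medians lay between 89.0 and 393 per kb, against 280 for all 63 members. Termination and recycling factors had a median of 213 ± 7.03 per kb over 7 of 7 genes, from Pelo at 102 to the release factor Etf1 at 366. Poly(A) binding proteins and partners had a median of 393 ± 27 per kb, with Pabpc1 at counts of 1403, 1359 and 1374. The eIF2 alpha kinases and phosphatase subunits had 151 ± 5.51 per kb. Of these, Eif2ak4, the amino acid sensor GCN2, had 279, 410 and 481, and its CV of 26.3% was the only one over 20% among the pathway genes with a mean of at least 200. Mknk2, a kinase of eIF4E, had 1815, 1675 and 1765 counts, or 503 per kb, and Mknk1 had 494, 449 and 537, or 192 per kb. Enzymes of hypusine and diphthamide synthesis, the modifications of eIF5A and eEF2, had a median of 89.0 ± 5.19 per kb. Mitochondrial translation factors had 156 ± 10.7 per kb.

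A start with C followed by at least 4 pyrimidines, as in mRNAs with a terminal oligopyrimidine tract, was looked for at the RefSeq gene start (GRCm38.p6, coding strand). A RefSeq start was available for 48 of the 63 members. The sequence was found at 1 of the 48, Eif3f, or 2.08%, against 3.01% of 27025 genes. Those 27025 are a wider set than the 17583 genes listed, so the 2 shares are over unlike sets. Gene starts in the annotation can lie away from the starts in use, so this says only which letters are at the annotated base.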

How the data were processed

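RNA from HA-tagged endothelial ribosomes of 3 hearts was sequenced after poly(A) selection (72 bases, single-end). The authors trimmed reads (Trimmomatic 0.39), aligned them to mm39 (STAR 2.7.11a), removed duplicates (Picard 3.1.1) and dropped reads that were multi-mapping, ribosomal or mitochondrial, counted exonic reads on the correct strand (featureCounts 2.0.4) and normalized with DESeq2 1.36.0. The deposited table is treated as a score, because the authors divided counts by size factors and rounded to whole numbers. Depth was estimated from whole numbers left empty or doubled by rounding; sums of normalized values are not depths. Members, lists and tests were chosen with earlier results of these data known. Lengths came from GENCODE vM39 (GRCm39), which held 17475 of 17583 identifiers (99.39%). Windows of 72 bases were searched exactly on both strands of the genome outside the gene. Ratios used log2((value + 0.5) / length) in each mouse, tested over all sign flips (exact permutation test, two-sided) with Benjamini-Hochberg adjustment. On simulated data for the CV rule, 100% of 200 genes changed 2-fold in 1 mouse were found, with 195 unchanged genes also called among 9361. Named genes were the genes of the pairs, the subunits of eIF2, eIF2B, eIF3, eIF4F and eEF1B, the 5 highest and 5 lowest per kb (the lowest being Eef2kmt, Eif3j1, Eif4ebp3, Eif3j2 and Eef1akmt3) and the 5 highest CVs; others are named with their group. Alternatives were other lengths, pseudocounts of 1 and 5, other scalings and filters, and leaving out each mouse. The coding length and the interval of the deposited gene were added after seeing the data. Python 3.11.15 with numpy 2.4.6, pandas 2.3.3, numba 0.67.0, biopython 1.88 and matplotlib 3.10.9 was used.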

Additional observations from a re-analysis of the deposited data

How the results depend on the processing

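Of 192 recomputed ratios, 11 changed sign, in 5 of 17 ratios. Eif4a1 over Eif4a2 turned to 1.89 per unique window and 1.83 per unique window inside the deposited gene. Eif1a over Eif1ax turned to -0.72 per kb of all exons, -0.65 without length and -1.47 per coding kb. Eef1a1 over Eef2 turned to 0.29 per unique window, inside the deposited gene or not. eIF2 over eIF2B turned to 0.046 without length and 0.57 per coding kb, and eIF3 over eEF1B to -0.21 per kb of all exons and -0.079 as a mean of log2 levels. Taking means of log2 levels over subunits gave 0.23 for eIF3 over eIF2B and 0.41 for eIF3 over eIF2. All such means for eIF3 include the low Eif3j1 and Eif3j2. Eif4g1 over Eif4g2 was -1.46 per coding kb. Leaving out a mouse or changing the pseudocount turned none of the 17. Of 90 recomputed group medians 4 moved, all with the length inside the deposited gene: eIF3 to 442, eIF5, eIF5B and eIF6 to 289, eEF1A to 415 and the enzymes acting on elongation factors to 105.5. With no filter on the mean, 2 members had a CV over 20% in place of 0. For Eef1a1 over Eef1a2, leaving out mouse 1, 2 or 3 gave between 2.96 and 3.18 per kb. Among groups of 3, no sample was tested as an outlier. No paired analysis was possible because the libraries form a single group. Whether duplicate removal lowered the counts of genes near or above 1 count per unique window, Eef1a1, Eif4a1 and Eef2 among the members, was not tested.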
